A study of Mus musculus with 3 samples.

Results

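The glucose and monocarboxylate transporter families are described here in endothelial cells (ECs) of the adult mouse lung. Members are the rows of the deposited table whose symbol is Slc2a, Slc5a or Slc16a followed by a number and at most 1 letter, and 39 of 24346 rows met this rule, 12 in the Slc2, 13 in the Slc5 and 14 in the Slc16 family. The samples are 3 libraries, S38, S44 and S52, of 1 condition: ECs freshly isolated from the lungs of wild type C57BL/6J mice, which the study's methods describe as males of 6 to 8 weeks. According to those methods VE-cadherin was labelled in the living animal, and CD31, CD45 and podoplanin were stained before sorting. The labels do not say whether the libraries came from separate mice or how many mice were pooled, and no other organ, stage or treatment was analysed here, so no contrast between conditions exists. Values are FPKM, fragments per kilobase of transcript scaled to the depth of the library, which is per length and allows genes to be set side by side within a library. Genes averaging 1 FPKM or more over the libraries are termed detected. Where 3 values are given without a library name, they stand in the order S38, S44, S52.

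The Slc2 genes encode GLUT proteins, which let hexoses and related polyols cross the membrane down their gradient. The Slc5 genes encode sodium-coupled carriers of glucose, myo-inositol, vitamins, iodide, choline and monocarboxylates. The Slc16 genes encode MCT proteins, some of which move lactate, pyruvate and ketone bodies together with a proton, while others carry other substrates such as aromatic amino acids. ECs are known to take up glucose through GLUT1, encoded by *Slc2a1*, and to rely on glycolysis for much of their ATP, releasing lactate.

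The labelled cell type was checked first. All 10 endothelial markers were above 1 FPKM in every library, and their median level was 519, 536 and 477 FPKM. Markers of other cells were present as well. The 5 platelet markers (*Ppbp*, *Pf4*, *Itga2b*, *Gp9* and *Gp1bb*) summed to 1709, 1357 and 40.2 FPKM, and the 5 alveolar type 2 markers to 3778, 3164 and 755 FPKM. The 5 airway markers summed to 2780, 2316 and 401 FPKM, and the 6 leukocyte markers to 1091, 835 and 186 FPKM. Most of the leukocyte sum was *Lyz2*, at 1047, 780 and 166 FPKM. Every leukocyte marker was lowest in S52, but *Cd68*, at 17.0, 27.4 and 16.7 FPKM, hardly differed there from S38. The airway marker *Bpifa1* and the leukocyte marker *Cd3e* were listed at 0 in S52. The summed mural markers, 109, 56.9 and 102 FPKM, were lowest in S44 instead. The 4 erythroid markers summed to 337, 469 and 94.5 FPKM, with *Hbb-bs* at 185, 308 and 0.00319 FPKM. The fall of this sum rested mainly on *Hbb-bs*. *Hba-a1* was at 147, 147 and 91.0 FPKM and *Alas2* at 4.37, 13.9 and 3.56 FPKM. S52 therefore stands apart. In a sorted bulk fraction, fewer cells of a type and less RNA per cell cannot be told apart. The estimated depth was 37800000, 39550000 and 34250000 fragments.

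In all, 17 of the 39 transporter genes (43.6%) were detected, 16 of them at 1 FPKM or above in every library. Among all rows 48.3% were detected, and among the 349 other rows with a solute carrier symbol 169 (48.4%) were. Only 5 transporter genes reached a mean of 10 FPKM (12.8%, against 25.7% of all rows). The median over the 39 genes was 0.559 FPKM, and over all rows it was 0.784 FPKM. In every library 8 members (20.5%) were listed at 0, against 29.5% of all rows. The families differed in how many members were detected, with 6 of 12 in Slc2, 8 of 14 in Slc16 and 3 of 13 in Slc5. No set test was run on these shares.

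**Figure D1:**
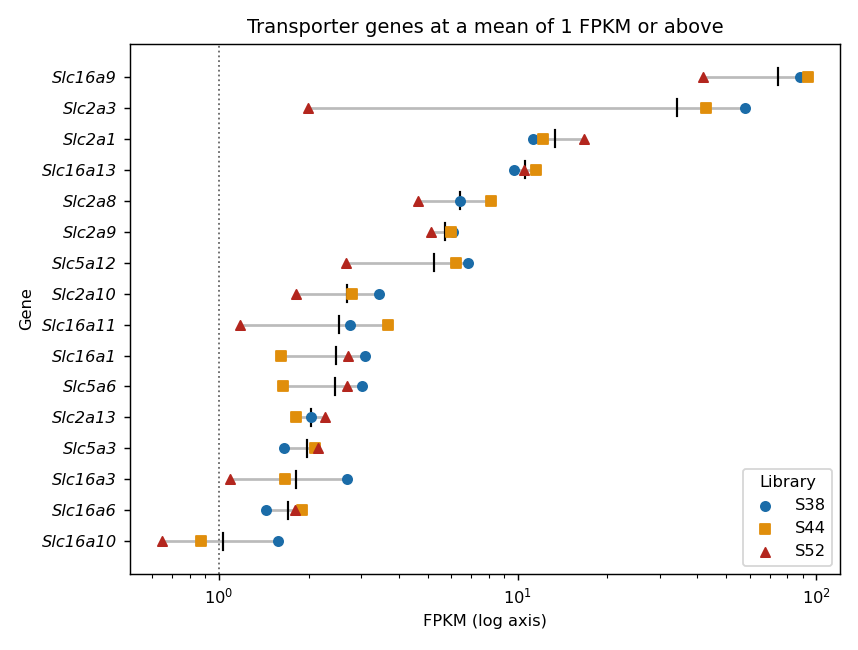
Level of 16 of the 17 detected transporter genes, in FPKM on a log axis, with 1 point per library, a grey line over the range and a black bar at the mean; the dotted line marks 1 FPKM. *Slc16a9* lies highest, and *Slc2a3* spans the widest range, from 1.99 FPKM in S52 to 57.8 FPKM in S38.

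Promoter windows are shown for 4 members that span the range of levels, to let their CpG content be seen beside the expression values. RefSeq windows (GRCm38.p6, 250 bases before to 50 after the start) were held for 29 of the 39 genes. The stretches below run 5′ to 3′ on the plus strand and end before both the RefSeq and the GENCODE start of the gene, and capitals mark CG dinucleotides. *Slc2a1* (chr4:119108495-119108710) had a mean of 13.4 FPKM, *Slc16a1* (chr3:104638414-104638663) 2.47 FPKM and *Slc16a9* (chr10:70245026-70245099) 74.6 FPKM. *Slc5a4a* (chr10:76147201-76147450), a gene of the sodium-glucose cotransporters, was listed at 0 in every library.
Slc2a1: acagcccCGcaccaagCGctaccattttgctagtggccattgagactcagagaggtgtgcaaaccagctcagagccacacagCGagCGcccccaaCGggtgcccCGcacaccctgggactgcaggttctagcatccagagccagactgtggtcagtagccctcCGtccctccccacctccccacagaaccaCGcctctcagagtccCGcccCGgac
Slc16a1: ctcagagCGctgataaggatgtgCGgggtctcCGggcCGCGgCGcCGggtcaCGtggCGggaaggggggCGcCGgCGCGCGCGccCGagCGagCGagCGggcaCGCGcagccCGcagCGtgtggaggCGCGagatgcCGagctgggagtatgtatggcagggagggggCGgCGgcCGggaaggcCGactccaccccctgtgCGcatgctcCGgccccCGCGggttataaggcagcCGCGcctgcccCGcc
Slc16a9: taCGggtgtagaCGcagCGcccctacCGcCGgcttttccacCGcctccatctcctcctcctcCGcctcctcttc
Slc5a4a: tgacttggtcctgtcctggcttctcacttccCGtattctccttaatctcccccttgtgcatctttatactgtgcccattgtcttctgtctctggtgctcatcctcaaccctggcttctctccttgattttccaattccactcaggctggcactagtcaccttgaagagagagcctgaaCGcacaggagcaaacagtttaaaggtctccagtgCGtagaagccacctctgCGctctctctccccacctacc
The *Slc16a1* stretch of 250 bases holds 37 CG dinucleotides and the *Slc5a4a* stretch of the same length holds 4. The shorter stretches of the higher genes hold 10 in 216 bases for *Slc2a1* and 7 in 74 bases for *Slc16a9*. The ratio of observed to expected CG was then taken over the full window of 300 bases. It had a median of 0.75 over the 12 detected transporter genes with a window and of 0.237 over the 17 others. Over all genes with a window the medians were 0.773 for detected genes and 0.268 for the rest, so the transporter genes lay close to the genome-wide values. A ratio over 0.6 was found in 9 of the 12 (75.0%) and in 4 of the 17 (23.5%), against 73.4% and 22.1% of all detected and undetected genes and 48.6% of all 17191 genes. There were exceptions in both directions. *Slc2a9*, detected at 5.74 FPKM, had a ratio of 0.116, and *Slc5a8*, listed at 0, had one of 0.733. The *Slc2a9* window (chr5:38483336-38483635, minus strand) lies inside the GENCODE gene, which runs from 38349273 to 38503143 and has 6 transcripts. The windows of *Slc16a11*, *Slc5a6* and *Slc16a3*, with ratios of 0.806, 0.810 and 0.933, lie inside their GENCODE genes as well. Whether these windows hold the starts used in these cells was not tested. The ratios describe letters in a window and were not tested against the levels.

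**Figure D2:**
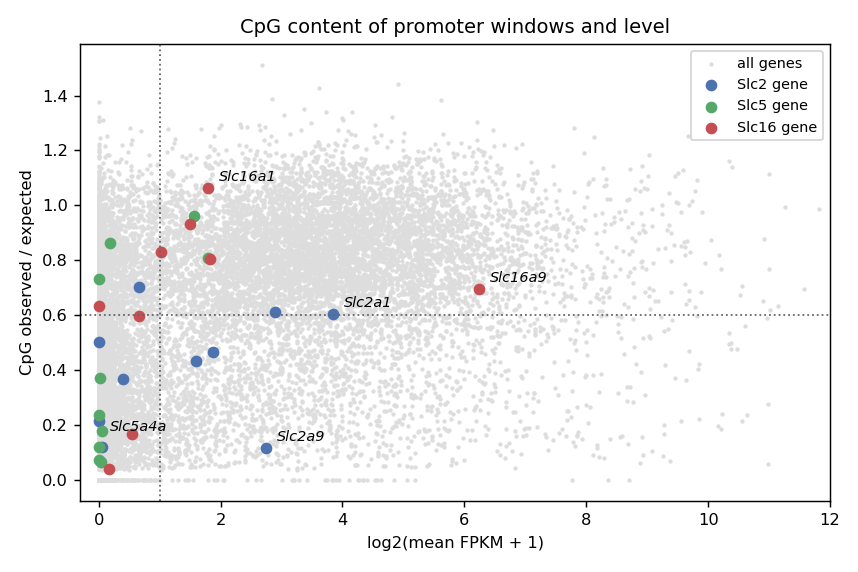
CpG observed to expected ratio of the promoter window against log2(mean FPKM + 1), for 29 transporter genes (coloured by family) and all genes with a window (grey; 1 gene lies beyond the axis). Dotted lines mark a ratio of 0.6 and a mean of 1 FPKM. Detected members lie mostly above the horizontal line, with *Slc2a9* far below it. The windows of *Slc2a9*, *Slc16a11*, *Slc5a6* and *Slc16a3* lie inside their GENCODE genes.

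Among the facilitative hexose transporters, *Slc2a3* and *Slc2a1* gave the highest means, and *Slc2a3* was the member that differed most between libraries. *Slc2a1* (chromosome 4, 119108711 to 119137983, plus strand, 10 exons) encodes GLUT1, the carrier of basal glucose uptake that also marks the blood-brain barrier. Its level was 11.2 (S38), 12.1 (S44) and 16.7 FPKM (S52), with a mean of 13.4 ± 2.92 FPKM (SD, n = 3). S52 was the highest library and the whole range was 1.49-fold. These values correspond to an estimated 1321, 1479 and 1766 fragments, so counting error is small beside the spread between libraries.

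*Slc2a3* (chromosome 6, 122727809 to 122801640, minus strand, 10 exons) encodes GLUT3, a high affinity glucose transporter known from neurons and platelets. Its level was 57.8 (S38), 42.7 (S44) and 1.99 FPKM (S52), with a mean of 34.2 ± 28.9 FPKM (SD, n = 3). S52 was thus 29.0-fold below S38 and 21.4-fold below S44, and even there an estimated 259 fragments stood behind the value. In log2(FPKM + 1), S52 minus S38 was -4.30 and S52 minus S44 was -3.87. The platelet markers moved by a median of -4.06 and -3.82 on that scale, with all 5 lowest in S52. The alveolar type 2 markers moved by -2.37 and -1.79, the airway markers by -2.29 and -2.20 and the leukocyte markers by -1.55 and -1.05. The erythroid markers moved by -0.46 and -1.24, while the endothelial markers moved by 0.092 and -0.056. These are medians, and single markers spread widely around them. The lowest leukocyte marker, *S100a8*, moved by -3.54 and -3.91, and the lowest airway marker, *Bpifa1*, by -3.78 and -3.85. *Hbb-bs* moved by -7.54 and -8.27. Platelet markers ran from -6.11 to -2.41 against S38 and from -5.90 to -2.02 against S44. No platelet marker was at 0 in S52, and the part of platelets or of the other cell types in the *Slc2a3* value was not tested. Without S52 the mean of *Slc2a3* was 50.2 FPKM, without S38 it was 22.3 FPKM and without S44 it was 29.9 FPKM.

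**Figure D3:**
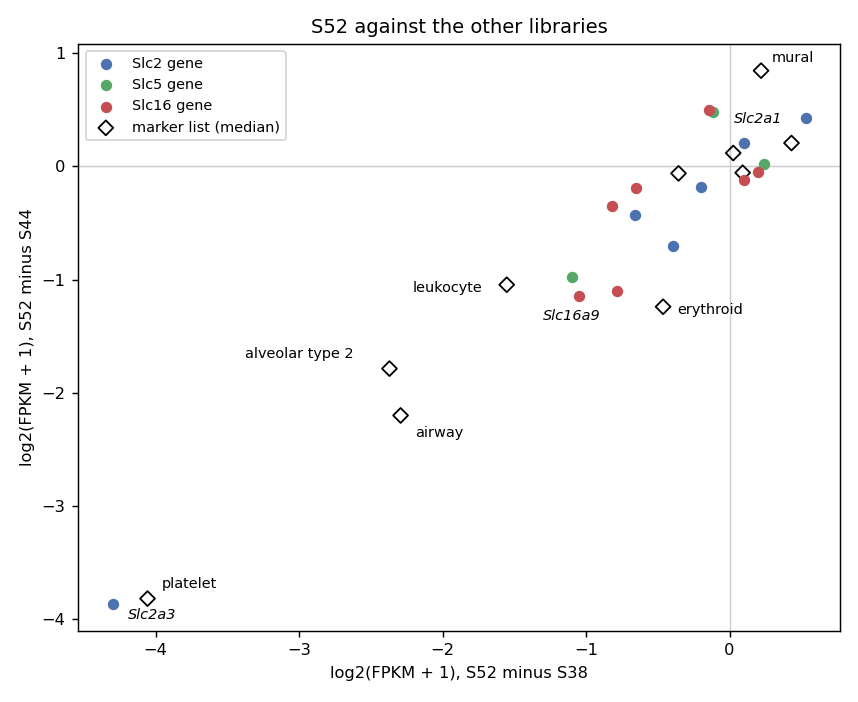
Difference of S52 from S38 (horizontal axis) and from S44 (vertical axis) in log2(FPKM + 1), with 1 dot for each of 16 detected transporter genes and 1 open diamond for the median of each of 10 marker lists. *Slc2a3* lies at -4.30 and -3.87, next to the platelet list at -4.06 and -3.82. Single markers are not drawn, and the leukocyte marker *S100a8* moved by -3.54 and -3.91. The other transporter genes lie between -1.15 and 0.53 on both axes, with *Slc16a9* at -1.05 and -1.15 and *Slc2a1* at 0.53 and 0.43.

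The order of these hexose transporters depended on the library. *Slc2a3* was above *Slc2a1* in S38 and S44 and below it in S52, with a mean difference of *Slc2a1* minus *Slc2a3* of -0.48 ± 2.65 in log2(FPKM + 1) (SD, n = 3). Of the summed FPKM of the Slc2 family, 88.7 in S38, 75.3 in S44 and 33.2 in S52, *Slc2a3* made up 65.2%, 56.6% and 6.00%. The share of *Slc2a1* was 12.7%, 16.1% and 50.2%. *Slc2a1* thus led the family in S52, and *Slc2a3* led it in the other libraries.

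The other detected GLUT genes were lower, and none of them differed by over 2-fold between libraries as deposited, though *Slc2a10* did once the columns were set to the same sum. *Slc2a8*, which encodes an intracellular transporter, was at 6.42, 8.16 and 4.64 FPKM. *Slc2a9*, a urate transporter gene, was at 6.06, 5.99 and 5.15 FPKM, with a CV of 8.83%. The ranges of these genes overlapped, so they are not ordered. *Slc2a10*, the gene mutated in arterial tortuosity syndrome, was at 3.44, 2.79 and 1.81 FPKM. *Slc2a13*, which encodes the proton-coupled myo-inositol transporter, was at 2.04, 1.82 and 2.26 FPKM.

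The tissue-restricted GLUT genes were low. *Slc2a4*, the insulin-responsive transporter of muscle and fat, was at 0.405, 0.202 and 0.684 FPKM, below *Slc2a1* in each library, by 3.32 ± 0.175 in log2(FPKM + 1) (SD, n = 3). *Slc2a6* reached 1.2 FPKM in S44 and *Slc2a12* reached 0.672 FPKM in S38, and both were listed at 0 in S52. The mean of *Slc2a6* was 0.588 FPKM with S52 and 0.881 FPKM without it, and that of *Slc2a12* was 0.314 and 0.471 FPKM. Part of the *Slc2a12* transcript overlaps *Tbpl1* on the other strand, and 8.67% of its read-length windows occur there. *Slc2a2*, the transporter of hepatocytes and pancreatic beta cells, reached at most 0.0955 FPKM. *Slc2a5*, the fructose transporter gene, and its neighbour *Slc2a7*, 4803 bp away on chromosome 4, were listed at 0 in every library. For *Slc2a5* the limit that a count of 0 leaves was 0.0264, 0.0255 and 0.0293 FPKM, which is 3 fragments at the estimated depth and covers counting error only.

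The Slc16 family held the highest of the 39 genes, *Slc16a9*, which was well above the lactate carriers of the family. *Slc16a9* (chromosome 10, 70245100 to 70285968, plus strand, 6 exons) encodes MCT9, an MCT linked to carnitine and urate. Its level was 87.9 (S38), 93.9 (S44) and 41.9 FPKM (S52), above 95.2% of all rows by its mean of 74.6 ± 28.4 FPKM (SD, n = 3). It was the highest Slc16 gene in every library, with 69.0%, 69.2% and 52.7% of the family sum. It exceeded *Slc2a3* in every library too, although the ranges over libraries overlapped. S52 was lower by 1.05 than S38 and by 1.15 than S44 in log2(FPKM + 1), and the part of platelet, alveolar type 2, airway, leukocyte and erythroid RNA in this difference was not tested. Without S52 its mean was 90.9 FPKM. Of its windows of 51 bp, 19.5% occur in the antisense gene *Gm7097* or the pseudogene *Gm9877*, which the unstranded reads cannot separate from it.

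*Slc16a13* (chromosome 11, 70216789 to 70221064, minus strand, 4 exons) encodes MCT13 and was at 9.73, 11.5 and 10.5 FPKM, with a CV of 8.38%. It differed by 1.18-fold between libraries as deposited. Its neighbour *Slc16a11* lies in convergent orientation, their ends 372 bp apart. *Slc16a11* was lower, at 2.75, 3.67 and 1.18 FPKM, and the ranges of the neighbours did not overlap. Its mean was 2.53 ± 1.26 FPKM (SD, n = 3), and 3.21 FPKM without S52. The 51 bp windows of neither gene occur in another annotated transcript.

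The carriers of lactate and pyruvate were low. *Slc16a1*, which encodes MCT1, was at 3.09, 1.62 and 2.71 FPKM, and *Slc16a3*, which encodes MCT4, the lactate exporter of glycolytic cells, was at 2.69, 1.67 and 1.09 FPKM. *Slc16a1* was above *Slc16a3* in S38 and S52 and marginally below it in S44, so their order is not resolved. *Slc16a7*, which encodes the high affinity carrier MCT2, was at 0.849, 0.645 and 0.182 FPKM, below *Slc16a1* in each library by 1.16 ± 0.489 in log2(FPKM + 1) (SD, n = 3).

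The other Slc16 genes were near or under the threshold. *Slc16a6*, which encodes MCT7, was at 1.44, 1.90 and 1.80 FPKM, and 24.1% of its windows occur in *Amz2*, an overlapping gene on the other strand at 12.3, 12.9 and 9.47 FPKM. *Slc16a10*, a transporter gene for aromatic amino acids, had the lowest mean of the detected members, at 1.58, 0.876 and 0.645 FPKM. The highest mean under the threshold was that of *Slc16a12*, a creatine transporter gene, at 0.879, 0.523 and 0.364 FPKM. *Slc16a4* was at 0.194 to 0.695 FPKM. *Slc16a5* reached 0.554 FPKM in S44, and *Slc16a8*, known from the retinal pigment epithelium, reached 0.36 FPKM in S52, and each was listed at 0 in another library. *Slc16a14* was listed at 0 throughout.

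**Figure D4:**
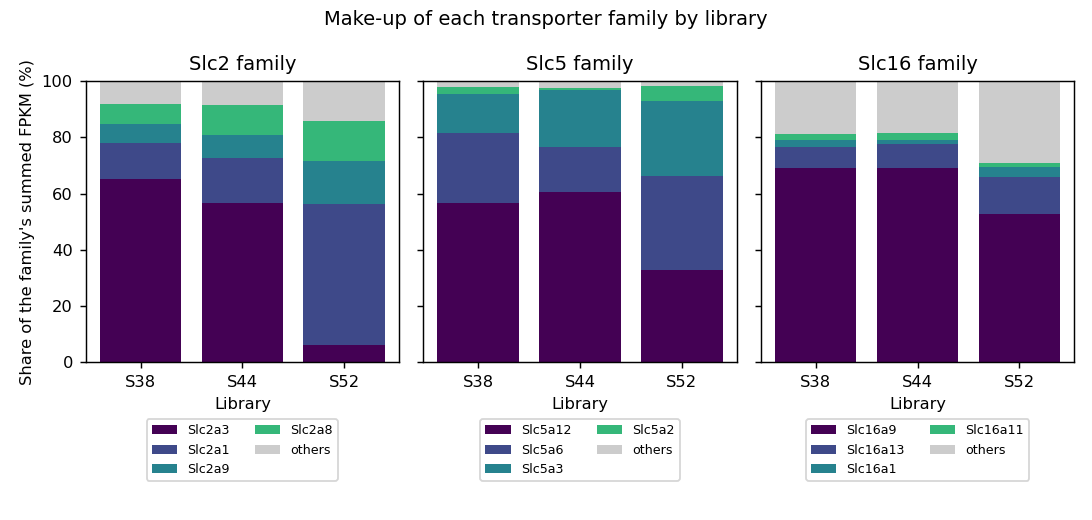
Share of each family's summed FPKM (percent) held by 4 named genes and by the rest (grey), by library. *Slc2a3* falls from 65.2% in S38 to 6.00% in S52, while *Slc16a9* leads its family in every library with 52.7% or more.

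In the sodium-coupled Slc5 family, *Slc5a12*, *Slc5a6* and *Slc5a3* were detected and no sodium-glucose cotransporter was. *Slc5a12* (chromosome 2, 110597298 to 110647779, plus strand, 15 exons) encodes a low affinity sodium-coupled monocarboxylate transporter known from the kidney tubule. Its level was 6.85 (S38), 6.23 (S44) and 2.66 FPKM (S52), from an estimated 875, 825 and 307 fragments, with a mean of 5.25 ± 2.26 FPKM (SD, n = 3). S52 was the low library and lay 2.57-fold below S38. Without S52 its mean was 6.54 FPKM. Only 0.489% of the windows of *Slc5a12* occur in another transcript. Its relative *Slc5a8*, the high affinity carrier, was listed at 0 in every library, where the limit left by a count of 0 was 0.0153, 0.0147 and 0.017 FPKM.

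*Slc5a6*, which encodes the multivitamin transporter for biotin and pantothenate, was at 3.01, 1.65 and 2.70 FPKM. Of its windows 21.9% occur in other transcripts, most often in *Gm6157* and also in *Atraid* and *Gm9415*. *Atraid*, at 80.5, 82.6 and 83.1 FPKM, overlaps its exons by 145 bp on the other strand. *Slc5a3*, a myo-inositol transporter gene, was at 1.66, 2.11 and 2.14 FPKM and overlaps *Mrps6* on the same strand over 159 bp of exon, a gene at 19.2, 20.2 and 43.5 FPKM. The order of *Slc5a3* and *Slc5a6* changed between libraries. *Slc5a11*, the other myo-inositol carrier gene of the family, was listed at 0 in every library.

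The sodium-glucose cotransporters were at the bottom of the range. *Slc5a2* was at 0.275, 0.0731 and 0.433 FPKM, but 22.4% of its windows occur in *BC017158*, which overlaps it on the other strand, at 10.2, 12.3 and 9.77 FPKM. *Slc5a1* reached 0.0542 FPKM in S44, from an estimated 8 fragments, and *Slc5a10* reached 0.0875 FPKM in S38. *Slc5a9*, *Slc5a4a* and *Slc5a4b* were listed at 0 in every library. The iodide carrier gene *Slc5a5* was at 0.104 to 0.166 FPKM, and the choline carrier gene *Slc5a7* was at 0.0786 FPKM in S38 and listed at 0 in the others.

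Across the detected members, ranges pooled over the libraries showed few clear steps. When the 17 genes were ordered by mean, 1 of the 16 neighbouring pairs had ranges over libraries that did not overlap, *Slc16a13* above *Slc2a8*. Some neighbours with overlapping ranges still kept their order within every library, such as *Slc2a1* above *Slc16a13* and *Slc5a12* above *Slc2a10*, while others did not. No read-length window was shared between members of the families, so reads matching exactly could not be assigned to the wrong member. More than a 2-fold range over the libraries was seen for 6 of the 17 genes (35.3%), against 20.1% of all detected rows. Among the detected other solute carrier rows the share was 18.3%. The 6 genes were *Slc2a3*, *Slc16a11* at 3.12-fold, *Slc5a12* at 2.57-fold, *Slc16a3* at 2.46-fold, *Slc16a10* at 2.45-fold and *Slc16a9* at 2.24-fold. All 6 were lowest in S52, but how many of all rows over 2-fold were lowest there was not counted, so this is not a trait of the transporters. Without S52 the count was 0 of 17, against 5.06% of the rows detected then. S52 was the lowest library for 9 of the 17 genes (52.9%), against 46.3% of all detected rows. Among the detected other solute carrier rows it was the lowest for 60.9%. S52 was the highest library for *Slc2a1*, *Slc2a13* and *Slc5a3*, and the share of all rows highest there was not counted.

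A list of 32 genes whose products work with the transporters was read in the same libraries, and 21 (65.6%) were detected, against 48.3% of all rows. The list was written with earlier results of these data known and covers chaperones, hexose phosphorylation, transporter trafficking, lactate and pyruvate handling, ketone bodies and myo-inositol, among others. Its median was 8.71 FPKM.

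*Bsg* encodes basigin, the chaperone that brings MCT1 and MCT4 to the membrane, and was at 187, 189 and 194 FPKM. It was thus far above *Slc16a1* and *Slc16a3* in every library and differed by 1.04-fold between libraries. *Emb*, the chaperone gene of MCT2, was at 5.10, 4.53 and 1.03 FPKM, below *Bsg* by 5.55 ± 0.906 in log2(FPKM + 1) (SD, n = 3). *Nptn*, the related neuroplastin gene, was at 134, 119 and 70.3 FPKM.

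Among the hexokinases, which trap glucose by phosphorylation, *Hk1* was at 47.3, 42.9 and 32.8 FPKM and was detected. *Hk2* was at 0.993, 0.582 and 0.587 FPKM, lower by 4.60 ± 0.191 in log2(FPKM + 1) (SD, n = 3), and *Hk3* and *Hkdc1* stayed under 0.5 FPKM in each library. *Txnip*, whose product lowers the amount of GLUT1 at the membrane, was at 385, 485 and 389 FPKM, and its relative *Arrdc4* at 24.6, 27.3 and 32.4 FPKM. The genes known from GLUT4 trafficking were detected although *Slc2a4* was not, with *Aspscr1* at 22.3, *Lnpep* at 7.38, *Tbc1d4* at 4.62 and *Tbc1d1* at 4.47 FPKM in the mean.

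*Ldha*, whose product favours lactate formation, was at 139, 153 and 187 FPKM, and *Ldhb* was at 14.8, 9.26 and 4.37 FPKM. The gap was 4.06 ± 0.999 in log2(FPKM + 1) (SD, n = 3), with *Ldha* higher in each library. *Mpc1* and *Mpc2*, the mitochondrial pyruvate carrier subunits, were at 43.8 ± 7.04 and 26.9 ± 4.57 FPKM (SD, n = 3). Of the ketone body enzymes, *Oxct1* was at 13.8 and *Acat1* at 18.1 FPKM in the mean, and *Bdh1* was under the threshold.

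*Pdzk1ip1*, the accessory gene of *Slc5a2*, was at 15.1 (S38), 10.1 (S44) and 0.044 FPKM (S52), the last being the library low in platelet, alveolar type 2, airway, leukocyte and erythroid markers, whose part was not tested. For myo-inositol, the synthase gene *Isyna1* was at 9.03 and *Impa1* at 16.6 FPKM in the mean, and *Miox* was under 0.2 FPKM.

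**Figure D5:**
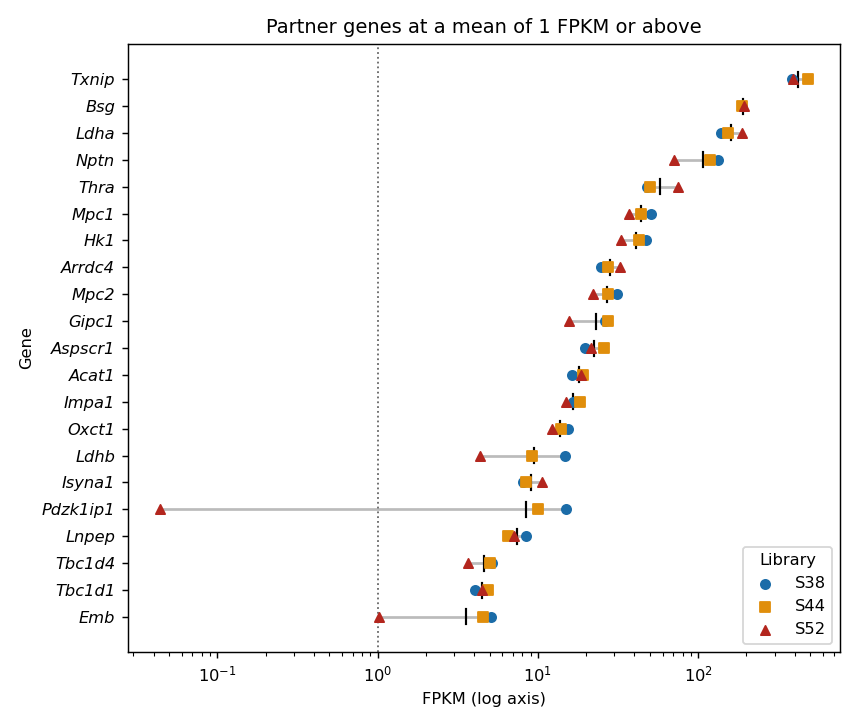
Level of each of the 21 detected partner genes, in FPKM on a log axis, with 1 point per library, a grey line over the range and a black bar at the mean; the dotted line marks 1 FPKM. *Bsg* is nearly the same in all 3 libraries, and *Pdzk1ip1* falls to 0.044 FPKM in S52.

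The order within 8 pairs of related genes was tested by an exact two-sided sign-flip permutation test of the paired log2(FPKM + 1) difference. With 3 libraries the smallest p it can give is 0.25, so no pair could pass 0.05, and a p that misses the threshold does not show that the genes are equal. In 5 pairs the order was the same in every library (*Slc2a1* over *Slc2a4*, *Slc16a1* over *Slc16a7*, *Bsg* over *Emb*, *Hk1* over *Hk2* and *Ldha* over *Ldhb*), each with an exact p of 0.25 and an adjusted p of 0.4 over the 8 pairs. The other 3 changed order between libraries, with an exact p of 1 for *Slc2a1* and *Slc2a3* and of 0.5 for *Slc16a1* and *Slc16a3* and for *Slc5a3* and *Slc5a6*. With 3 libraries, every pair with the same order throughout gives 0.25, whatever the size or spread of its difference. Since nothing says that the libraries came from separate animals, these p-values concern only how steady the order was across the libraries.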

How the data were processed

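RNA of 3 libraries was poly-A selected and sequenced without strand information as paired reads of 51 bp. As deposited by the authors, the table gives FPKM by gene symbol, with 1 column per library, and the genome build is mm10. The submitters' processing notes name Trimmomatic 0.36, TopHat2 2.1.0 and Cufflinks 2.2.1, without a role. The study's methods describe another route, with STAR and HTSeq counts, and the gene annotation is not given in the sources used here. All per-sample columns were used (0 left out).

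Values were used as deposited, without rescaling. Means, SDs and shares are on the FPKM scale, and differences on log2(FPKM + 1), with a pseudocount of 1, which understates changes of low genes. FPKM values are not counts, so count models were not used. Sequencing depth was inferred from the low values of 7077 genes with a single GENCODE M21 transcript, by searching the step that makes FPKM times length whole. Of 396, 541 and 231 low values, 77.5%, 74.9% and 73.6% came within 0.15 of a whole number, with the step chosen to fit them. On simulated whole counts, which meet the method's assumptions exactly, it recovered the depth set for each library, and the real values fit less closely. Intervals and limits cover counting error only. Positions are GRCm38 (GENCODE M21), where all 39 genes were found. Windows of 51 bp were searched on both strands of all annotated transcripts of other genes. Python 3.11.15, numpy 2.4.6 and pandas 2.3.3 were used.

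By rule, detected members, apart from 1 that is not reported here, are named with all library values and those at 0.1 FPKM or above with a range, and the genes of 8 pairs are named. Some lower members and marker genes were named after their values were seen. The members, lists, pairs and alternatives were chosen with earlier results of these data known, and the promoters shown and the CpG ratio were chosen after the values were seen. The marker lists are endothelial, platelet, alveolar type 2, alveolar type 1, airway, leukocyte, erythroid, mural, fibroblast and brain endothelial genes. The alternatives were other thresholds, pseudocounts and scalings, and leaving out each library.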

Additional observations from a re-analysis of the deposited data

How the results depend on the processing

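Of 35 alternatives to the counts and medians, 27 stayed within 1.5 times the reported count or 1 SD of the median. The number of detected transporter genes was 27 with a threshold of 0.1 FPKM, 5 with 10 FPKM, and 16 to 17 without 1 library. The number over 2-fold between libraries was 11 with no filter on low values, 2 at a mean of at least 10 FPKM, 10 at 1.5-fold, and 0 to 6 without 1 library, with 0 when S52 was left out. The median was 2.68 FPKM over detected members only and 0.444 to 0.701 FPKM without 1 library, the highest value again without S52. Dividing the columns to the same sum shifted all genes by 0.27 in S38, -0.20 in S44 and -0.028 in S52 on the log2 scale. It raised the number over 2-fold from 6 to 9, adding *Slc2a10*, *Slc16a1* and *Slc5a6*, and 12 of 17 genes kept their lowest library. S52 still had the lowest sum of each family and the highest *Slc2a1*. The detected partner genes numbered 14 at 10 FPKM and 28 at 0.1 FPKM. The mean difference of *Slc2a1* minus *Slc2a3* turned to 0.42 without S38 and 0.15 without S44, and was -2.00 without S52. No other pair changed sign, and 5 to 7 pairs kept 1 order without 1 library. No paired analysis was possible because the 3 libraries form 1 group, so no replicate number is shared between groups; the gene pairs were compared within libraries, which is another kind of pairing.

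Markers outside the comparisons were alveolar type 1 genes, with medians of 26.9, 20.5 and 34.6 FPKM in S38, S44 and S52, and fibroblast genes, with 9.51, 7.56 and 8.71 FPKM. The erythroid list, which was compared above, had medians of 75.9, 80.3 and 1.78 FPKM. This fall of the median rested mainly on *Hbb-bs*, while *Hba-a1* was at 147, 147 and 91.0 FPKM and *Alas2* at 4.37, 13.9 and 3.56 FPKM. The brain endothelial list had medians of 0.751, 1.34 and 2.37 FPKM. In it, *Abcb1a* was at 37.2, 41.7 and 47.1 FPKM and *Slc7a5* at 1.32, 2.30 and 4.10 FPKM, while *Mfsd2a* and *Slco1c1* stayed under 1 FPKM.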
